A study of Mus musculus with 6 samples.

Results

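The S100 calcium-binding proteins were followed in 4T1-Luc2-RFP cells through 7 genes, chosen by name and not by measured values: S100a4, S100a6, S100a8, S100a9, S100a10, S100a11 and S100a13. All 7 were present among the 13912 genes of the deposited table. The cells are a mouse mammary carcinoma line of strain BALB/c origin engineered with the reporters Luc2 (luciferase) and RFP (red fluorescence), which both groups carry. The cultured group holds 3 libraries of the line that had not been injected into mice. The tumour group holds 3 libraries of the same line after growth in the mouse mammary gland, taken by FACS from what the labels call MIND tumors and the series title an intraductal model. The titles of all tumour libraries also carry the word Right, which the labels do not explain. Mouse age, sorting gate and growth time are not given in the sources used here. Within a group, libraries 1, 2 and 3 follow their label numbers from low to high. No label ties a library to its own culture or animal, so a p-value here covers library-to-library spread alone, which may be technical.

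S100 proteins are small proteins with paired EF-hand calcium-binding sites that act mostly as dimers, changing shape with calcium and then binding partner proteins. S100a8 and S100a9 pair to form calprotectin, which fills the cytosol of neutrophils, binds zinc and manganese, and when released acts on the receptors TLR4 and RAGE. The other 5 genes are widely expressed in epithelial, mesenchymal and myeloid cells. S100a4 binds non-muscle myosin and is known for its link to metastasis, S100a6 binds the Siah-complex protein encoded by Cacybp, S100a10 holds annexin A2 at the membrane and serves as a plasminogen receptor, S100a11 binds annexin A1, and S100a13 takes part in the export of the growth factor FGF1.

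The pair S100a8 and S100a9 went from near absence in culture to high and uneven levels in the tumour libraries. S100a13 rose in the tumour libraries. S100a4, S100a6, S100a10 and S100a11 were abundant in both groups, nearly equal in the 3 tumour libraries, and did not pass the test with all 6 libraries. Their cultured group was split, with library 3 above the other cultured libraries and above all tumour libraries. At a Benjamini-Hochberg adjusted p under 0.05 over all genes (limma), 3 of the 7 genes were called higher and 0 lower. The direction of S100a8 and S100a9 was fixed by their presence in the table, so of these 3 only S100a13 could have gone either way. Among all 13912 genes, 48.2% were called, 29.5% higher and 18.8% lower, so the share of S100 genes called higher should be read against that background. That split moved to 25.5% higher and 27.6% lower with libraries centred on their medians, to 21.5% and 39.6% after quantile normalization, and to 34.2% and 10% when scaled to epithelial markers. The median log2 change (tumour mean minus cultured mean) was 0.82 over the 7 genes and 0.08 over all genes. Without cultured library 3 all 7 were called higher, where 33.2% of all genes were. Since 4 of the 7 were highest of all 6 libraries in that library, leaving it out raises their change by construction.

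All 7 genes lie on chromosome 3 (GRCm38, GENCODE M21) and are protein-coding. From the start of S100a13 to the end of S100a9, 5 of them span 181 kb, from 90514435 to 90695721. S100a11 and S100a10 lie together from 93520488 to 93564643. Of the 7 genes, 6 had an entry among the RefSeq promoters (GRCm38.p6), in which the 250 bases before the start were searched on both strands. The words were TTNCNNAA, a core recognised by C/EBP factors of myeloid cells, GAGGAAGT, a core recognised by PU.1, and TGANTCA, the AP-1 word. None of the matches overlapped a match of another word. The promoters that held a match, those of S100a8, S100a9 and S100a11, are shown 5′ to 3′ up to the first annotated exon, with matches in capitals.
S100a8, plus strand, chr3:90668821-90668977: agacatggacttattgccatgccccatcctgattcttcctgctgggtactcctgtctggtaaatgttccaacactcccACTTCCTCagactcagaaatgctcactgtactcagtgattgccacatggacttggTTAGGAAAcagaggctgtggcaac
S100a9, minus strand, chr3:90695722-90695971: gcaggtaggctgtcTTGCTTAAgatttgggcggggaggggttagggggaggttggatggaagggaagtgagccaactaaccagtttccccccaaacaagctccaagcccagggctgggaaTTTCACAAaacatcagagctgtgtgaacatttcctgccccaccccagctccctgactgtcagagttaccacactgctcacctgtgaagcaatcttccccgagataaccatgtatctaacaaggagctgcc
S100a11, plus strand, chr3:93520246-93520487: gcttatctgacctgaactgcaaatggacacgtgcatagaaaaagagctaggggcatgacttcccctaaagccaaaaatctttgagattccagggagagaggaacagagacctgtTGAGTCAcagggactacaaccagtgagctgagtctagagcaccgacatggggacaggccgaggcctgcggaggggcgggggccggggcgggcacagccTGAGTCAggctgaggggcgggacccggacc
The C/EBP word stood in the windows of S100a8 and S100a9 and in 36.8% of all 32851 promoter windows of this length, so its presence is common. The PU.1 word stood in that of S100a8 and in 2.44% of all windows. The AP-1 word stood 2 times in that of S100a11 and in 6.75% of all windows. The windows of S100a4, S100a6 and S100a13 held none of the 3 words, which says only that these letters are not there.

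The libraries held 35448588 to 41469090 reads. Most genes of higher level varied little between the libraries of a group. Levels are given as CPM, the reads of a gene scaled to a common library total, or as log2 CPM. Over genes whose group mean reached 4 in log2 CPM, the median SD was 0.30 in culture and 0.13 in the tumour libraries. In culture, 5.36% of such genes were at least 1 log2 unit higher in library 3 than the mean of libraries 1 and 2, and 4.71% were at least 1 lower. In the tumour libraries, 27 of 8691 such genes (0.31%) were at least 2 log2 units lower in library 2 than the mean of libraries 1 and 3. Sorting is labelled for the tumour group alone, and markers of host cells were higher in its libraries. All 17 macrophage and monocyte markers and all 11 fibroblast markers were called higher, 12 and 6 of them with a direction fixed by their presence in the table (fewer than 30.5 cultured reads where every gene has at least 61 in all), and with summed levels of 7040 to 10486 CPM and 6806 to 8722 CPM against 28.1 to 38.7 CPM and 23.7 to 51.7 CPM in culture. No macrophage marker had 0 reads in culture, and Dpt was the 1 fibroblast marker that did. Epithelial markers summed to 3061 to 3616 CPM in the tumour libraries and 3146 to 4004 CPM in culture, with 1 of 14 called higher and 5 lower.

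S100a8 and S100a9 encode the subunits of calprotectin. In cultured libraries 1, 2 and 3, S100a8 was read 1, 3 and 5 times, and in tumour libraries 1, 2 and 3 it was read 21463, 1701 and 9671 times. The reads of S100a9 numbered 10, 0 and 1 in culture, against 55038, 4596 and 24543 for the tumour group. In both genes the groups did not overlap, tumour library 1 was the highest and tumour library 2 the lowest of the tumour group.

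As levels, S100a8 stood at 582, 41.9 and 255 CPM in tumour libraries 1, 2 and 3, with a mean of 293 ± 272 CPM (SD, n = 3). S100a9 stood at 1493, 113 and 647 CPM, with a mean of 751 ± 696 CPM (SD, n = 3). The SD was thus nearly as large as the mean for both genes. The log2 change was 11.25 (SE 0.96, limma adjusted p = 4.44e-05) for S100a8 and 13.25 (SE 1.25, limma adjusted p = 7.96e-05) for S100a9. Since the cultured means rest on 9 and 11 reads in all, the ratio of pooled CPM is given with its 95% counting interval, which was 3880 (2043 to 8485) for S100a8 and 8137 (4548 to 16302) for S100a9. The intervals cover counting error only. No gene of the table had fewer than 61 reads over the 6 libraries, so both genes were present only through their tumour reads and the direction of their change was fixed by that. The call for each held in all 15 alternatives, with adjusted p from 3.78e-06 to 0.0018 for S100a8 and from 8.89e-06 to 0.000949 for S100a9.

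**Figure D1:**
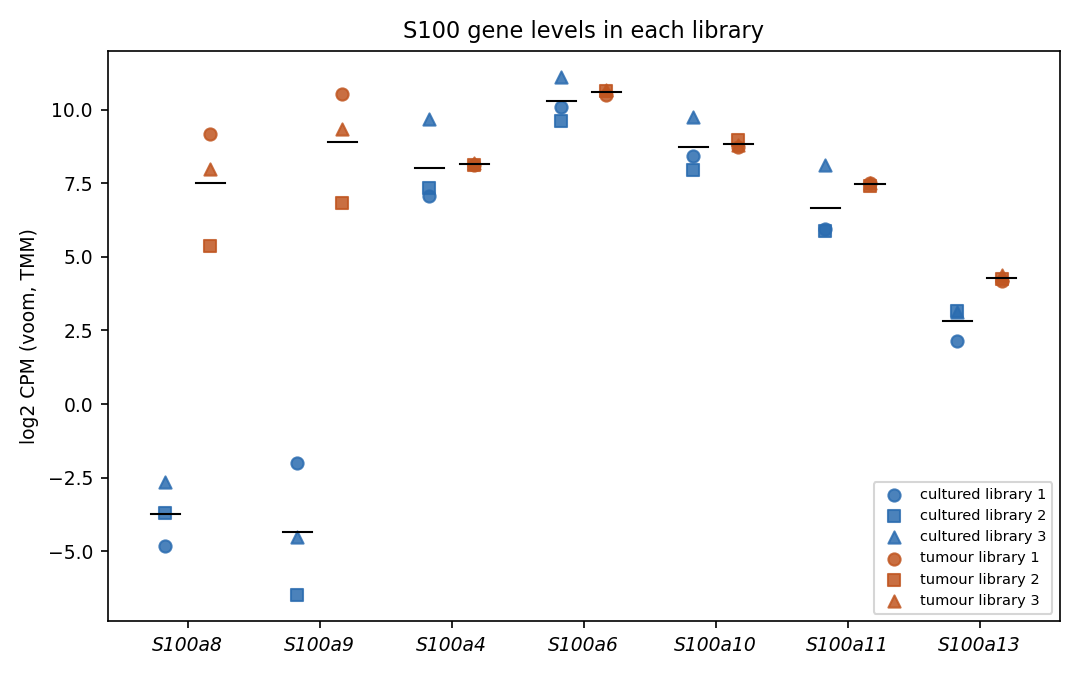
Level of each S100 gene on the log2 CPM scale (vertical axis) in 3 cultured (blue) and 3 tumour libraries (orange), with symbols for library number and black bars for group means. S100a8 and S100a9 spread over 3.80 and 3.72 log2 units within the tumour group, while S100a4, S100a6, S100a10 and S100a11 are highest in cultured library 3 and lie close together in the tumour libraries.

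The 2 genes kept a steady proportion to each other while their common level moved. Between the lowest and the highest tumour library S100a8 differed 13.9-fold and S100a9 13.2-fold. Yet S100a9 exceeded S100a8 by 1.36, 1.43 and 1.34 log2 units in tumour libraries 1, 2 and 3. Per kilobase of annotated exon, which is the scale for comparing genes, S100a9 was 3.41, 3.59 and 3.37 times S100a8. No such proportion can be read in culture, where neither gene had more than 10 reads in a library.

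Spread of this size was rare among tumour libraries. The SD of S100a8 over the 3 tumour libraries was 1.94 log2 units, and 99.96% of the 2366 genes with a tumour mean within 1 log2 unit of its own had a lower SD. For S100a9 the SD was 1.90, and 99.86% of 701 such genes had a lower one. The median SD of those genes was 0.12 and 0.14. Tumour library 2 minus the mean of libraries 1 and 3 was -3.20 log2 units for S100a8 and -3.12 for S100a9, that is 9.20-fold and 8.69-fold lower.

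Markers of neutrophils moved in the same order. Of 20 listed, 17 were tested and all were called higher, with a median log2 change of 9.58, or 9.23 with the 6 genes that had 0 reads in culture set to their bound. Of the 17, 13 had so few cultured reads that a place in the table needed more tumour than cultured reads, so their direction was fixed. The genes Ly6g, Elane and Mpo were not among those tested. The summed level of the list was 291 to 356 CPM in culture and 3790, 1968 and 2419 CPM in tumour libraries 1, 2 and 3. Cultured reads of the list came mainly from Padi4 (28637 reads), Mmp9 (11148) and Lcn2 (954), so these genes do not mark neutrophils alone here. Among the other 12 markers with a tumour mean of at least 1, grouped after their values were seen, none had more than 78 cultured reads. All 12 were lowest in tumour library 2 and highest in tumour library 1, with a difference of library 2 from the other tumour libraries of -3.47 to -1.43 log2 units. Retnlg, a secreted protein gene of neutrophils, differed by -3.47 and Csf3r, the receptor of the growth factor G-CSF, by -2.43. Mmp8, the neutrophil collagenase, had 0 cultured reads, was at least 1151-fold higher over a floor of 3 reads for the cultured group, and differed by -2.25 in tumour library 2. Il1r2, a decoy receptor of interleukin-1, and Trem1, an activating receptor of myeloid cells, differed by -1.78 and -1.43. For Mmp9, a gelatinase, Padi4, an enzyme that converts arginine to citrulline in histones, and Lcn2, an iron-siderophore binder, the differences were 0.07, 0.21 and -0.25. The part of neutrophil RNA in the levels of S100a8 and S100a9 was not tested, and in bulk libraries fewer cells of a type and less RNA per cell cannot be told apart. Macrophage markers differed less, by a median of -0.55 and at most -1.12 for Cd14, but all 17 were lower in tumour library 2. Fibroblast markers differed by a median of -0.29, with 10 of 11 lower in that library.

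**Figure D2:**
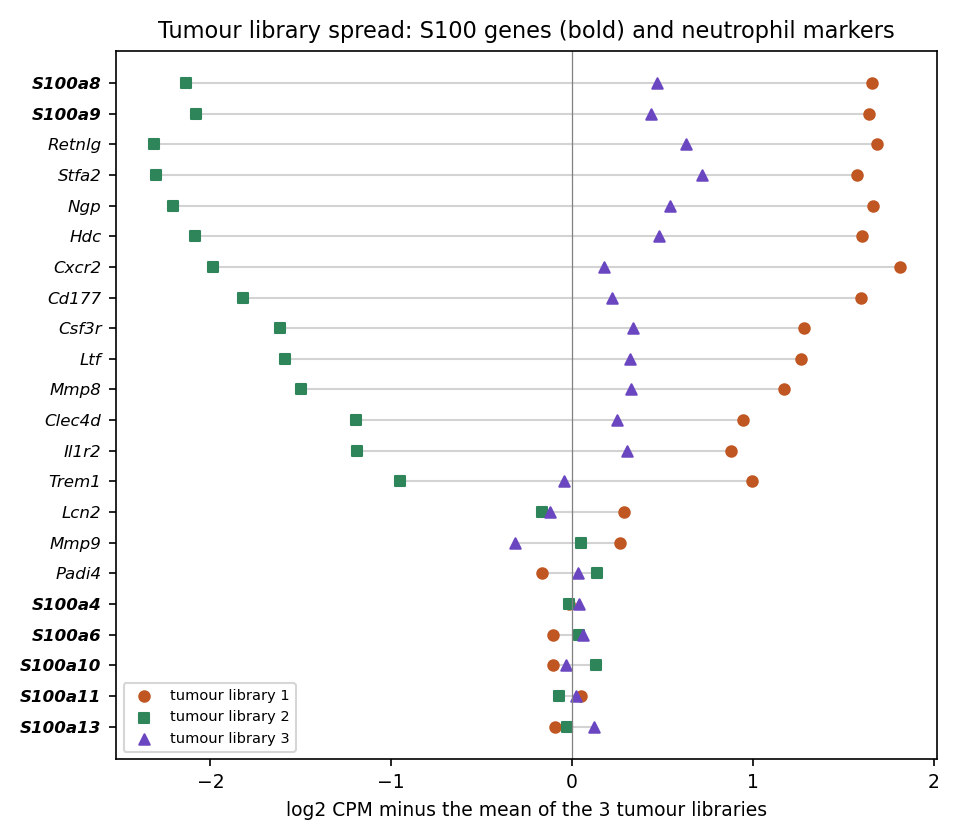
Each row is a gene and each symbol a tumour library, placed by its log2 CPM minus the gene's mean over the 3 tumour libraries. S100a8, S100a9 and 13 of 15 neutrophil markers run from tumour library 2 on the left to library 1 on the right, while the other 5 S100 genes (bold, bottom) stay within 0.24 log2 units.

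By Euclidean distance between log2 profiles centred on their own mean over the 6 libraries, the 5 genes outside the members most like S100a8 were Retnlg, Stfa2l1, Mmp8, Olr1 and Il1f9, at distances of 1.52 to 1.81. For S100a9 they were Csf3r, Cd300lf, Clec7a, Syk and Itgam, at 1.56 to 2.29. The distance uses the tumour values, so a like order of the tumour libraries is part of the choice. These lists share no gene, and the cultured part of each distance rests on few reads. Itgam stands in the macrophage list.

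S100a4, which encodes a myosin-binding protein also called metastasin, stood at 134, 161 and 831 CPM in cultured libraries 1, 2 and 3. In tumour libraries 1, 2 and 3 it stood at 279.6, 280.0 and 290 CPM. The tumour values fell between those of cultured libraries 1 and 2 and that of cultured library 3, so the groups overlapped. Its log2 change was 0.12 (95% interval -1.33 to 1.57, limma adjusted p = 0.892). An interval this wide holds both a 2.96-fold rise and a fall to 0.40 of the cultured level. Without cultured library 3 the change was 0.95 (SE 0.13, limma adjusted p = 0.000795), and with any other library left out it was -0.37 to 0.13.

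S100a6, which encodes calcyclin, was the most abundant of the 7 in CPM in every cultured library. It stood at 1100, 795 and 2239 CPM in cultured libraries 1, 2 and 3 and at 1450, 1603 and 1626 CPM in tumour libraries 1, 2 and 3. Here too the tumour values lay inside the cultured range. The log2 change was 0.32 (95% interval -0.54 to 1.18, limma adjusted p = 0.51), and without cultured library 3 it was 0.74 (SE 0.18, limma adjusted p = 0.0129).

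S100a10, the light chain that anchors annexin A2, stood at 348, 249.9 and 869.8 CPM in cultured libraries 1, 2 and 3. It stood at 429, 506 and 451 CPM in tumour libraries 1, 2 and 3. Its log2 change was 0.12 (95% interval -0.85 to 1.10, limma adjusted p = 0.827), and without cultured library 3 it was 0.64 (SE 0.17, limma adjusted p = 0.0179). For S100a11, the annexin A1 partner, cultured values were 61.8, 59.3 and 281 CPM and tumour values 185, 169.9 and 181 CPM. Cultured libraries 1 and 2 were close to each other and cultured library 3 was above every tumour library. The log2 change of S100a11 was 0.82 (95% interval -0.46 to 2.10, limma adjusted p = 0.255), and without cultured library 3 it was 1.56 (SE 0.11, limma adjusted p = 4.04e-05). With libraries weighted by their fit the change of S100a11 was 1.32 (limma adjusted p = 0.00265). A processed pseudogene of S100a11 lies on chromosome 12, and reads that fit both places may be missing from its count.

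Cultured library 3 exceeded the mean of cultured libraries 1 and 2 by 2.50 log2 units for S100a4, 2.22 for S100a11, 1.56 for S100a10 and 1.26 for S100a6. Among the 8007 genes whose mean in culture reached 4, the shares that were raised at least as much in that library were 0.11%, 0.19%, 0.99% and 2.30%. These 4 genes were highest of all 6 libraries in cultured library 3, as were 33.5% of the 8007 genes. In S100a13 and S100a9 it was not so, with differences of 0.46 and -0.28, and for S100a8 the cultured values rest on 9 reads. Cultured library 3 had the fewest reads (35448588), and its total was scaled by 0.983, against 1.07 and 1.11 for the other cultured libraries. Epithelial markers differed in it by a median of -0.13, fibroblast markers by -0.32 and macrophage markers by -0.46. The fibroblast and macrophage medians rest on few cultured reads. Col3a1, at the fibroblast median, had 38, and Ly6c2 and Ccr2, at the macrophage median, had 1 and 6. Single epithelial markers went both ways in it, from -1.97 for Cldn4, a tight junction claudin, to 1.96 for Krt14, a basal keratin. What sets this library apart was not tested. Nor was the part of the macrophage and fibroblast markers, higher in all tumour libraries, in the changes of these 4 genes without it.

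**Figure D3:**
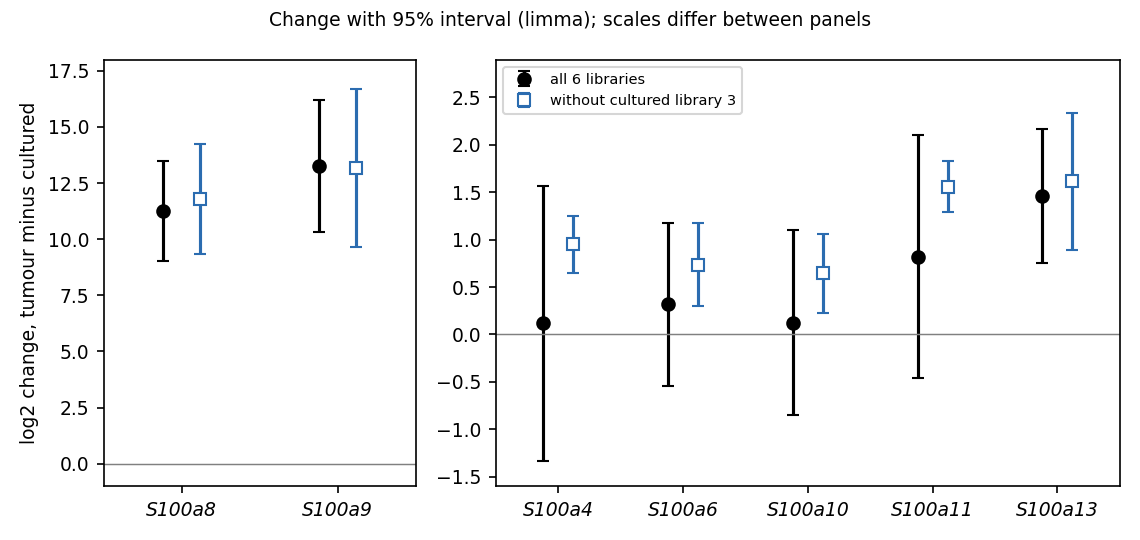
Log2 change (tumour minus cultured) with its 95% interval from limma for all 6 libraries (black circles) and without cultured library 3 (blue squares), the vertical scales of the panels being different. For S100a4, S100a6, S100a10 and S100a11 the intervals include 0 with all libraries and lie above 0 without that library, while those of S100a8, S100a9 and S100a13 lie above 0 in both.

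S100a13, an atypical family member that takes part in the release of FGF1 from cells, stood at 4.43, 8.92 and 8.64 CPM in cultured libraries 1, 2 and 3. In tumour libraries 1, 2 and 3 it stood at 18.1, 19.0 and 21.0 CPM. Every tumour library was above every cultured library. The log2 change was 1.46 (SE 0.30, limma adjusted p = 0.00539), a 2.76-fold rise, and it was called in all 15 alternatives, with changes from 0.88 after quantile normalization to 1.76. The groups did not overlap in S100a8, S100a9 and S100a13, 3 of the 7 genes. For S100a8 and S100a9 the direction was fixed by their presence in the table. Of all genes, 59.8% had groups that did not overlap, 34.6% with the tumour libraries higher and 25.2% with them lower. S100a13 was read on a low count, 189 to 797 reads a library. The summed macrophage and fibroblast markers given above were higher in the same libraries, and their part in this rise was not tested.

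In the tumour libraries the 5 genes other than the calprotectin pair had SDs of 0.03 to 0.12 log2 units, and coefficients of variation of 2.18% for S100a4 to 8.53% for S100a10 in CPM. Among genes with a tumour mean within 1 log2 unit, 4.20% had a lower SD than S100a4, 19.5% a lower one than S100a11, 20.6% than S100a6, 36.7% than S100a13 and 41.6% than S100a10. Tumour library 2, low in the pair, differed from the other tumour libraries by -0.10 to 0.20 log2 units in these 5 genes. In culture the SDs of these 5 genes were 0.57 for S100a13 to 1.45 for S100a4. There, 99.4% of genes of like level had a lower SD than S100a4 and 99.0% a lower one than S100a11.

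The reads of the 7 genes were shared out differently from library to library. Summed, they reached 1648, 1274 and 4229 CPM in cultured libraries 1, 2 and 3, and 4436, 2732 and 3473 CPM in tumour libraries 1, 2 and 3. The pair held 46.8%, 5.67% and 26.0% of these reads in the tumour libraries and at most 0.0157% in culture. Without the pair the sums were 2362, 2578 and 2570 CPM in the tumour libraries, between those of cultured libraries 1 and 2 and that of cultured library 3. The mean log2 level of the pair lay above that of the other 5 genes by 2.05 in tumour library 1 and 0.75 in library 3, and below it by -1.78 in library 2. In tumour library 1 S100a9 alone, at 1493 CPM, exceeded S100a6, at 1450 CPM.

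**Figure D4:**
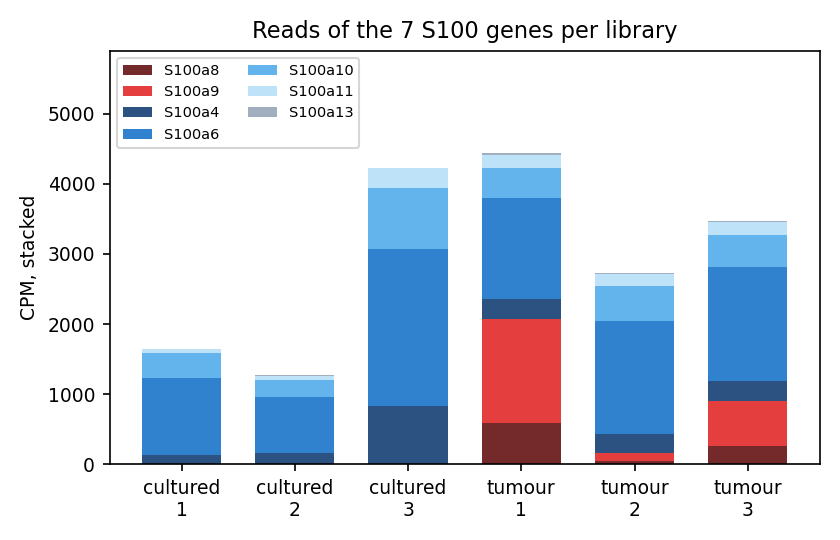
CPM of the 7 S100 genes stacked for each library, the calprotectin pair in reds at the base and the other genes in blues and grey above. The pair makes up 46.8% of the stack in tumour library 1 and 5.67% in tumour library 2, and the stack of cultured library 3 reaches 4229 CPM with almost none of it.

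Per kilobase of annotated exon, the order of levels in the tumour libraries was S100a9 (1439 ± 1333 CPM per kb, SD, n = 3), S100a6 (1141 ± 70.0), S100a4 (485 ± 10.6), S100a8 (422 ± 392), S100a10 (381 ± 32.5), S100a11 (349 ± 14.9) and S100a13 (27.1 ± 2.12). The levels of S100a9 and S100a8 overlapped those of their neighbours in this order, since S100a9 ran from 217 to 2860 CPM per kb and S100a8 from 60.3 to 839. The 3 values of S100a6 stood clear of those of S100a4, and those of S100a4 of S100a10. S100a10 and S100a11 overlapped, at 354 to 417 and 332 to 361 CPM per kb. S100a13 was the lowest of the 7 in every tumour library. In culture the order was S100a6 (1008 ± 557), S100a4 (642 ± 676), S100a10 (404 ± 275), S100a11 (262 ± 249), S100a13 (10.3 ± 3.52), S100a9 (0.17 ± 0.25) and S100a8 (0.11 ± 0.09), all CPM per kb (SD, n = 3). Neighbours among the first 4 overlapped there, but the lowest value of S100a6 (582) lay above the highest of S100a11 (550). Lengths were the union of all annotated exons, and that of S100a6 (1367 bases) includes exons far downstream, so its level per kb would be higher if a shorter form prevailed.

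By the same distance, which fixes a like profile by choice, the genes nearest to the other members were Tubb4b, Snord22, Mns1, Mat2a and Dna2 for S100a4, and Cox7b, C1d, Usmg5, Psma2 and Sdhd for S100a6. For S100a10 they were Acly, Ptrf, 6430562O15Rik, Txn1 and 1810043H04Rik. Those of S100a11 were Tns4, Adam19, Actb, Nradd and Hspa8, and those of S100a13 were Fjx1, 3830406C13Rik, Vkorc1, Fzd5 and Midn. Profiles of this shape were common for S100a6, with 1751 genes within a distance of 1, and less so for S100a4, with 58.

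Of the 12 other genes of the family list, 6 were tested, 5 of them S100 genes in the chromosome 3 cluster and the other S100pbp, an S100P-binding protein gene on chromosome 4. Along the chromosome, S100a1, S100a13, S100a14 and S100a16 lay side by side from 90511034 to 90543151 and all were called higher. This run among the 12 S100 genes of chromosome 3 in the table was picked after its calls were seen. Of all genes, 29.5% were called higher. S100a1 and S100a13 lie on opposite strands with 42 bases between them. The log2 change of S100a16 was 2.87 (SE 0.43, limma adjusted p = 0.000974), that of S100a14 1.92 (SE 0.43, limma adjusted p = 0.00747) and that of S100a1 1.44 (SE 0.25, limma adjusted p = 0.0022). Next to them S100a3, known from hair cuticle, was lower, with a change of -3.76 (SE 0.37, limma adjusted p = 9.78e-05), from 8.35, 9.30 and 4.48 CPM in culture to 0.54, 0.57 and 0.42 CPM. S100a4 and S100a6 followed without a call. S100a7a, known from inflamed skin, was lower by -1.85 (SE 0.55, limma adjusted p = 0.0254), and lost its call when tumour library 2 (adjusted p = 0.0644) or 3 (0.0941) was left out and when scaled to epithelial markers (0.0549). S100a14 had a change of 0.39 after quantile normalization and lost its call (adjusted p = 0.318). In GENCODE M21 a protein-coding gene of the same strand, Gm42674, overlaps both S100a3 and S100a4. S100a2 and Gm23464, a small nuclear RNA gene, overlap S100a3 as well. Reads that S100a3 and S100a4 share with these genes may have been left uncounted.

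Most partners inside the cell were not called. Of 13 tested, 3 were called higher, 2 lower and 8 neither, with a median log2 change of 0.35. Anxa6, a calcium-dependent membrane-binding annexin, had a change of 1.21 (SE 0.14), Anxa5, another annexin, one of 0.79 (SE 0.17) and Fgf1, the cargo of S100a13, one of 1.95 (SE 0.69, limma adjusted p = 0.0487) from 69 cultured reads. The change of Fgf1 was -0.92 after quantile normalization, and its call was lost in 9 of its 14 alternatives. Tpm1, a tropomyosin, had a change of -1.02 (SE 0.19) and Cacybp, the S100a6 partner, one of -0.68 (SE 0.23, limma adjusted p = 0.0446). Cacybp was 0.80 log2 units higher in cultured library 3 than the mean of the other cultured libraries. Anxa2, the partner of S100a10, named here after its values were seen, had a change of 0.35 (limma adjusted p = 0.287) and stood 0.75 log2 units higher in cultured library 3 than in the others. Without cultured library 3 the counts were 5 higher and 3 lower.

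All 11 receptors and surface partners tested were called higher, with a median log2 change of 2.64, the same with Cd36 at its bound. For Cd36 and Emb the direction was fixed by their presence in the table. Of these, Cd14 and Cd68 also stand in the macrophage list, whose summed level rose alongside and whose part was not tested. Cd14, the co-receptor of TLR4, had a change of 6.21 (SE 0.33) and Cd68, a lysosomal protein of macrophages, one of 4.67 (SE 0.49). Emb, which encodes the immunoglobulin-family protein embigin, reached 127 ± 38.7 CPM (SD, n = 3) and a ratio of 5161 (95% counting interval 1766 to 25030) over 3 cultured reads. Cd36, a scavenger receptor, was not read in culture and rose at least 599-fold over a floor of 3 reads for the whole cultured group. Tlr4 and Ager, the gene of RAGE, were singled out after their values were seen. Tlr4 changed by 1.75 (SE 0.45, limma adjusted p = 0.0143) to a tumour mean of 6.33 log2 CPM. Ager changed by 1.49 (SE 0.47, limma adjusted p = 0.0316) and remained at a tumour mean of -0.31 log2 CPM. Of 11 signalling genes below these receptors, 5 were called higher and 1, the adaptor gene Tirap, lower, with a median change of 0.32. The cytokine genes Il1b, Il6 and Tnf had changes of 10.38 (SE 0.59), 9.48 (SE 0.90) and 9.48 (SE 0.85), and the adaptor gene Myd88 one of 0.97. For Il6, with 9 cultured reads, the direction was fixed by its presence in the table. The part of the higher macrophage markers in the changes of these signalling genes was not tested.

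Of the plasmin generation genes listed around S100a10 and annexin A2, all 6 reported here were called higher, as were 29.5% of all genes. Their log2 changes ran from 1.03 for Plgrkt, a plasminogen receptor gene, to 5.74 for Serpinb2. Plg, the plasminogen gene, and Klkb1 were listed but not among the genes tested. S100a10 and Anxa2 themselves were not called. Serpinb2, a plasminogen activator inhibitor, had a change of 5.74 (SE 1.24), and was 4.43 log2 units higher in cultured library 3 than in the other cultured libraries. Serpine2 had a change of 3.46 (SE 0.38) and Plat, the tissue-type activator, one of 3.42 (SE 0.46). Plau, the urokinase-type activator, and Plaur, its receptor, had changes of 3.07 and 1.17. Macrophage and fibroblast markers were higher in the same libraries, and their part in these changes was not tested. Transcription factors known to act on S100a8 and S100a9 were called higher in 8 of 8 cases, with a median change of 3.22. In 4 of the 8 (Cebpa, Cebpe, Gfi1 and Spi1) the direction was fixed in the same way. The higher macrophage and fibroblast markers stand beside these calls too, and their part was not tested. Spi1, which encodes PU.1, had a change of 11.56 (SE 0.72), and Cebpa had a ratio of 8979 (95% counting interval 1611 to 354700) over 1 cultured read. Cebpe, a factor of late neutrophil maturation, remained at 0.72 ± 0.29 CPM (SD, n = 3), and its change was 0.47 after quantile normalization (adjusted p = 0.436). In Irf8, a monocyte and dendritic factor with 1554 cultured reads, the change was 3.66 (SE 0.40). Tumour library 2 lay below the other tumour libraries in all 6 factors with a tumour mean of at least 1, by a median of -0.43 log2 units.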

How the data were processed

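RNA was sequenced in 6 libraries, 3 cultured and 3 sorted from tumours. The submitters' processing notes name HISAT, HTSeq, limma and the build mm10, without versions. The authors deposited 1 table of log2 CPM in voom's form, with 0.5 reads added and totals scaled by TMM. Solving this form gave whole reads, within 0.01, in 100% of cells. Each column belongs to 1 sample by its title.

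All 13912 genes entered 1 limma fit (limma 3.58.1, R 4.3.3) of tumour against cultured with a variance trend. Tests were two-sided, and Benjamini-Hochberg adjusted p under 0.05 made a call. The fit was checked on simulated reads with few changed genes, equal scatter for all genes and no deviating library. That check does not bear on a split group such as the cultured one. No p-value was adjusted over the S100 genes alone. Count models were not run, since the deposited unit is log2. The members, lists and tests were chosen with earlier results of these data known. Of each list, up to 4 called genes with the largest change were named, or the 2 with the highest mean if none was called, and of other genes the 5 nearest to each member. Further genes were named after their values were seen. The 15 alternatives changed scaling, filter, pseudocount, variance model, weights or left out 1 library. Positions and exon lengths came from GENCODE M21 (GRCm38), and promoters from RefSeq (GRCm38.p6). Protein sequences were not used here. 1 gene of the plasmin list is not reported here.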

Additional observations from a re-analysis of the deposited data

How the results depend on the processing

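No paired analysis was possible because the groups share no replicate number in the labels. S100a8, S100a9 and S100a13 kept their direction and call in all 15 alternatives. For S100a8 and S100a9 the direction was fixed by their presence in the table, so only their call could have changed. With 1 library left out, the change ran from -0.37 to 0.95 for S100a4, from -0.011 to 0.74 for S100a6, from -0.26 to 0.64 for S100a10 and from 0.44 to 1.56 for S100a11, the highest being without cultured library 3 in each. Without cultured library 1 the values were -0.37 for S100a4 and -0.02 for S100a10, and without cultured library 2 they were -0.23 for S100a4, -0.011 for S100a6 and -0.26 for S100a10. None of these 5 values was called. Centring on the median gave -0.11 for S100a4 and -0.10 for S100a10, and quantile normalization gave -0.014 for S100a10, also uncalled. The median change of all genes was 0.08 as deposited, -0.14 centred, -0.32 after quantile normalization and 0.32 when scaled to epithelial markers. S100 genes called higher numbered 3 to 7 with 1 library left out, the 7 without cultured library 3. With library weights the change of S100a11 was 1.32 and it was called.

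Over all genes, 4099 were higher and 2612 lower, a share of higher calls that scaling moves. The lower calls numbered 5513 after quantile normalization, 1398 when scaled to epithelial markers and 1520 to 3301 with 1 library left out. The lower calls of the other family genes were 1 when scaled to epithelial markers and 1 to 3 with 1 library left out. Intracellular partners had 7 higher calls with library weights, 2 to 5 with 1 library left out, and 4 lower calls when centred, 1 when scaled to epithelial markers, 1 without a variance trend and 1 to 3 with 1 library left out. Receptors had 1 lower call and myeloid factors 1 lower call after quantile normalization. Signalling genes had 2 lower calls when centred, 0 when scaled to epithelial markers and 0 to 1 with 1 library left out. Epithelial markers had 2 higher calls with library weights, 8 lower calls when centred and 8 after quantile normalization, with 1 to 2 higher and 3 to 7 lower calls with 1 library left out. For these counts the cause was not tested. Of the 40 genes named from lists, 6 lost their call in 19 settings in all, and Fgf1 turned to -0.92 after quantile normalization. Depth limits S100a8 and S100a9 in culture, at 9 and 11 reads.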
